A study of Mus musculus with 9 samples.

Results

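The AP-1 and BATF factors are a family of basic leucine zipper transcription factors, and the genes described here are the 10 members given by name, Fos, Fosb, Fosl1, Fosl2, Jun, Junb, Jund, Batf, Batf2 and Batf3. They were chosen by symbol and make up 10 of the 50686 genes counted. RNA-seq was done on mouse bone marrow cells of the C57BL/6N background that had been transformed with a retrovirus carrying the BCR/ABLp185 oncogene and grown into permanent cell lines. All lines carried the oncogene, and 1 line was wt, 1 was Stat5a-/- and 1 was Stat5b-/-, the last 2 grown from marrow of mice that lack the named STAT5 gene. Each line gave 3 technical replicate libraries, 9 in all, so p-values compare these 3 lines and measure only the technical spread, and genotype and line cannot be told apart. The study asked what STAT5A and STAT5B, closely related transcription factors that BCR/ABL activates, each contribute to leukemic cells.

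AP-1 is a dimer of 2 leucine zipper proteins that binds short DNA elements in promoters and enhancers. JUN proteins can pair with themselves or with FOS proteins, while FOS proteins need a JUN partner. Fos, Fosb, Jun and Junb are immediate early genes, which mitogens and stress induce through MAP kinases within minutes, and Jund is expressed more steadily. BATF proteins lack a transactivation domain, pair with JUN proteins and act in lymphocytes and dendritic cells together with IRF4 or IRF8. Batf2 is known as a gene that interferons induce.

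The targeted genes were examined first. Stat5a had between 36.0 and 48.2 normalized CPM (the read count scaled to library size with TMM factors) in wt, between 11.8 and 13.6 in Stat5a-/- and between 72.2 and 91.7 in Stat5b-/- libraries. Stat5b had between 103.3 and 106.9 in wt, 124.5 to 155.9 in Stat5a-/- and 58.5 to 72.3 in Stat5b-/- libraries. Each targeted gene was lowest in the line labelled as its knockout, with a log2 fold change against wt of -1.79 for Stat5a (adjusted p = 4.69e-07) and -0.73 for Stat5b (adjusted p = 1.69e-04), and reads remained on both. The deposited description of the knockout samples calls them wt lines, in conflict with their titles and genotype labels. The libraries held between 11948136 and 19016396 counted reads. Of the 12 B-lineage markers none was at 0 in any line, but Rag1, which recombines antigen receptor genes, was at 64.7 normalized CPM in wt, 0.158 in Stat5a-/- and 0.667 in Stat5b-/-.

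Stretches close to the starts of the members were searched for known elements, and elements further upstream were not. RefSeq promoters of mouse build GRCm38.p6, from 250 bases before to 50 bases after the annotated start, matched 8 of the 10 members, and Batf2 and Fosl1 had no entry. Shown 5′ to 3′ are those of Fos and Fosb, which were lower in Stat5b-/-, of Jun, which was higher in both knockout lines, and of Batf, which was higher in Stat5a-/-. Capitals mark every match to the searched motifs.
Fos, chr12:85473640-85473939, plus strand: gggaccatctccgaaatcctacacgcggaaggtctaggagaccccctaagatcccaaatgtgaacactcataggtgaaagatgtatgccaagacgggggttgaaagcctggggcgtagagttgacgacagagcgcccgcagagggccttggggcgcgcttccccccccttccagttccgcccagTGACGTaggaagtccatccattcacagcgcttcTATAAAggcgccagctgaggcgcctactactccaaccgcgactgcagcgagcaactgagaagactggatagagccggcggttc
Fosb, chr7:19309996-19310295, minus strand: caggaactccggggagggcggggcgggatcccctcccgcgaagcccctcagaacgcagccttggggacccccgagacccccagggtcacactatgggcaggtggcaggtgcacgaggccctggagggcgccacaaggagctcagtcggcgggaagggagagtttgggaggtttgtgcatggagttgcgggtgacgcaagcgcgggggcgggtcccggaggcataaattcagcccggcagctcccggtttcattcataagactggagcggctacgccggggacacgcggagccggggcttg
Jun, chr4:95052173-95052472, minus strand: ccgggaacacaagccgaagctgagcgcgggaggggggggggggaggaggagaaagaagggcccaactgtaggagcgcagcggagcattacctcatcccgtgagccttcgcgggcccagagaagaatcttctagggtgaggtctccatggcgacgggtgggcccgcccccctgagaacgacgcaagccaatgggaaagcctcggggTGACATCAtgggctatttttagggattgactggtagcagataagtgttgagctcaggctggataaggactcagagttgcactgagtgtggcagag
Batf, chr12:85686470-85686769, plus strand: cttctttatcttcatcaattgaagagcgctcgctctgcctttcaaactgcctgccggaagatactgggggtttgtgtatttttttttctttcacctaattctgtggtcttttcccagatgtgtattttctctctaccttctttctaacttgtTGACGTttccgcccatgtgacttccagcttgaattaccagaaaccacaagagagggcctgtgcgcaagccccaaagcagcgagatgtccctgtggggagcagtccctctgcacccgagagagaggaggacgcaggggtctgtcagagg

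Both strands were searched for 7 motifs, with their share among 32851 RefSeq promoters of the same length given beside each. TGAGTCA, the classical AP-1 element, was in 5.2% of them, TGACGTCA, the cAMP response element, in 1.79%, and its core TGACGT, which is part of it, in 7.51%. TGACATCA, the AP-1 variant known from the Jun promoter, was in 3.62%, and TATAAA, the TATA box, in 13.6%. TTCNNNGAA, the STAT5 palindrome, was in 8.3%, and the core of the interferon-stimulated response element, a pair of GAAA blocks 2 bases apart, in 3.44%. The core TGACGT, the Jun variant and the TATA box were added after the sequences had been seen. Fos held TGACGT 66 bases and TATAAA 33 bases before its start, Jun held TGACATCA 45 bases before, and Batf held TGACGT 98 bases before. Fosb held none of the 7. The start used by RefSeq lay 0 bases from that of the counted gene for Fos and Jun, 6 for Fosb and 51 for Batf. Among the promoters not shown, that of Junb, with a start 30 bases away, held TATAAA beginning at the start itself. For Batf3, Fosl2 and Jund the starts lay 567, 671 and 1210 bases apart, so these promoters are not shown. That of Batf3 held 1 STAT5 palindrome, TTCCACGAA, and that of Fosl2 held 1 interferon element core on the minus strand, TTTCTTTTTC, at positions not given because of that distance. A match is a description of letters and not a measured binding site.

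Counts were tested with edgeR's quasi-likelihood method over 13852 genes, and p-values were adjusted by the Benjamini-Hochberg method over all of them. A gene was called at an adjusted p under 0.05. Of the 10 members 8 passed the filter on low counts, Fosl1 and Batf3 did not, and Batf2 passed only through the libraries in which it was high, so it had to differ. In Stat5b-/- against wt, 3 members were higher (Jun, Jund and Batf2), where 24.2% of all tested genes were, and 2 were lower (Fos and Fosb), where 22.0% were. DESeq2, the study's tool, and edgeR with RLE scaling or with library totals alone called 3 lower there, with Batf as well. In Stat5a-/- against wt, 4 members were higher (Jun, Jund, Batf and Batf2), against 19.8% of all genes, and 0 were lower, against 16.3%. At an unadjusted p under 0.05 there were 2 lower members there, Fosl2 and Junb, and DESeq2 also called 0. Between the knockout lines, 1 member was higher in Stat5b-/- (Batf2), against 16.4% of all genes, and 4 were lower (Fos, Fosb, Jund and Batf), against 17.5%. With so many genes called between these lines, the counts of members say little by themselves, and the values of each gene follow.

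With the study's added limit of a fold change above 2, fewer members remained. Batf2 is counted among them, though it passed the filter only through the libraries in which it was high. In Stat5b-/- against wt these were 2 higher members, Jund and Batf2, with 10.6% of all genes higher, and 1 lower, Fos, with 8.44% lower. In Stat5a-/- against wt they were 3 higher members, Jund, Batf and Batf2, with 7.75% of all genes higher, and 0 lower, with 6.49% lower. In Stat5b-/- against Stat5a-/- they were 1 higher member, Batf2, with 4.81% of all genes higher, and 2 lower, Fos and Batf, with 6.6% lower. The fold of 2 was close for several. Without Stat5b-/- replicate 1, Jund in Stat5b-/- against wt was at 0.99 on the log2 scale and no longer passed this limit, while Fosb in Stat5b-/- against wt (-1.12) and both Jund (-1.14) and Fosb (-1.04) between the knockout lines passed it. Batf in Stat5a-/- against wt was at 0.95 with library totals alone and with the GC offset, and Fosb in Stat5b-/- against wt was at -1.01 with the GC offset. Both comparisons with wt share the wt libraries, so their values stand side by side below and do not support each other.

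**Figure D1:**
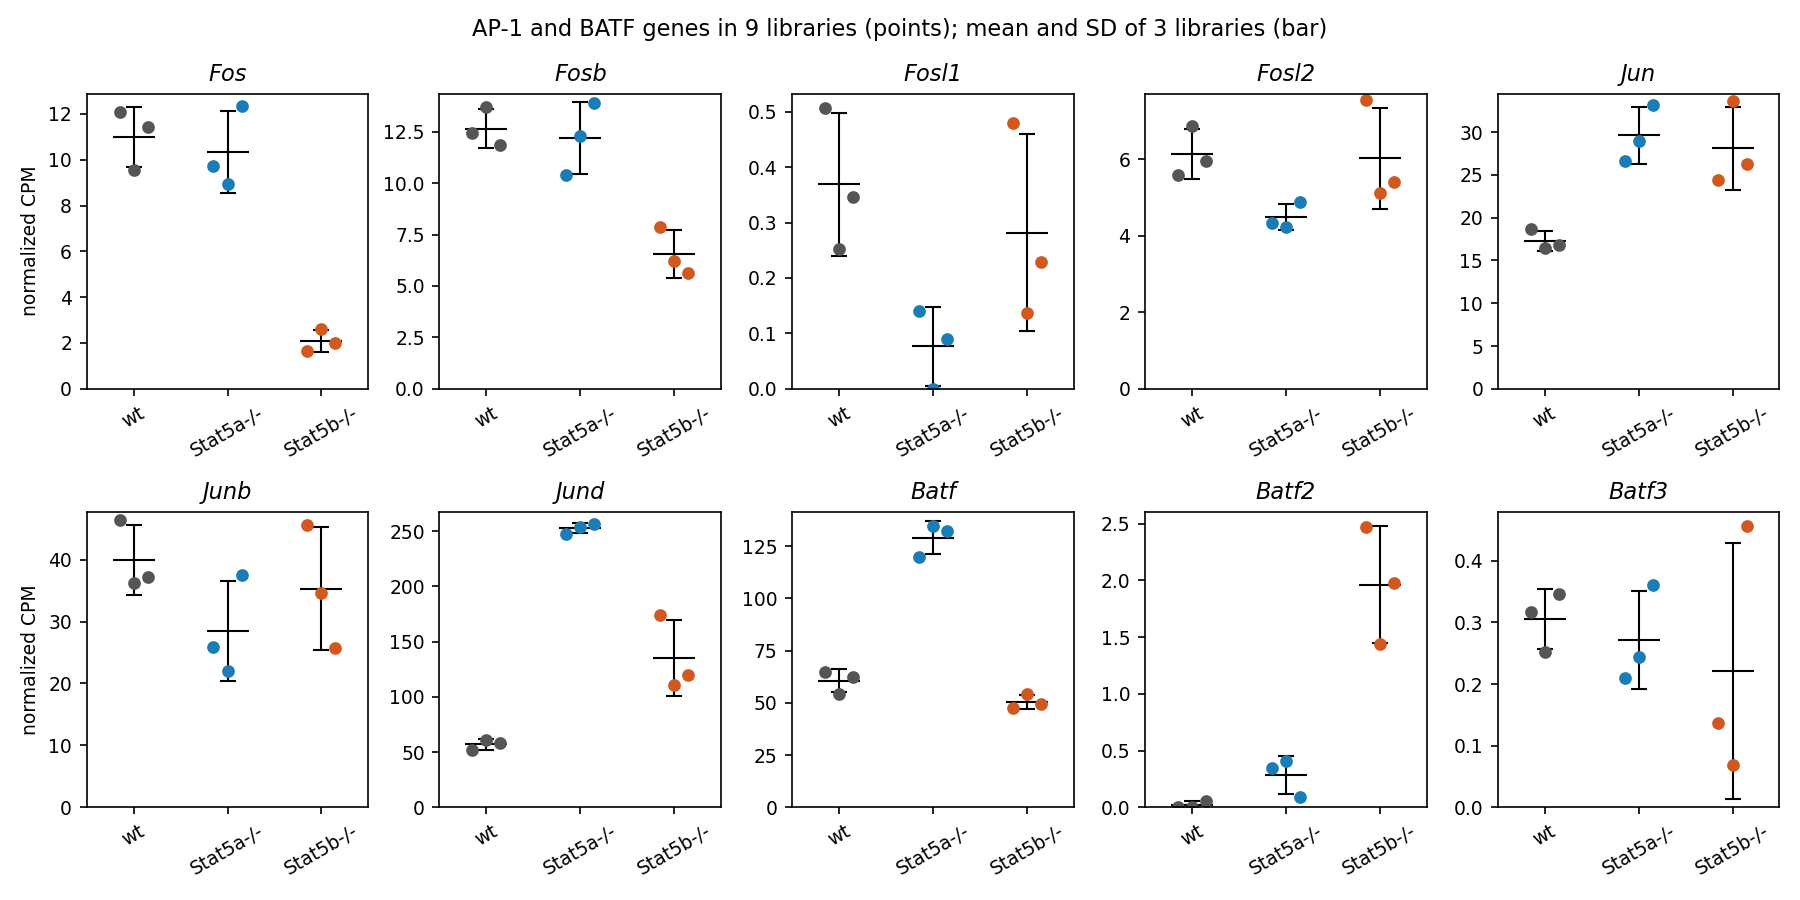
Normalized CPM of the 10 AP-1 and BATF genes in each of the 9 libraries (points, 3 per line), with the mean and SD of each line as bars, each panel on its own linear axis from 0. Fos lies between 1.65 and 2.60 in the Stat5b-/- libraries and at 8.95 or more in all others, Jund is highest in Stat5a-/- at 247.6 to 256.4, and Batf2 is near 0 outside Stat5b-/-.

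Fos was the member that fell most. Fos (ENSMUSG00000021250.13, chromosome 12 from 85473890 to 85477273 of GRCm38, plus strand, 4 exons) encodes the founding FOS protein. It had 12.1, 9.54 and 11.4 normalized CPM in the wt libraries, 9.72, 8.95 and 12.3 in the Stat5a-/- libraries and 1.65, 2.60 and 1.98 in the Stat5b-/- libraries. The Stat5b-/- libraries lay below all others, while wt and Stat5a-/- overlapped. Fos fell by 2.40 on the log2 scale in Stat5b-/- against wt (standard error 0.21, adjusted p = 8.35e-07). Set against Stat5a-/-, the Stat5b-/- level gave -2.31 (standard error 0.21, adjusted p = 2.77e-06). The log2 fold change in Stat5a-/- against wt was -0.09 with a 95% interval from -0.47 to 0.28 (adjusted p = 0.721). These levels rest on 577 reads in wt, 386 in Stat5a-/- and 88 in Stat5b-/- over 3 libraries each.

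Fosb (ENSMUSG00000003545.3, chromosome 7 from 19302696 to 19310051, minus strand) encodes a FOS protein that is induced with Fos. Its wt libraries had 12.4, 13.7 and 11.8 normalized CPM, those of Stat5a-/- had 10.4, 12.3 and 13.9, and those of Stat5b-/- had 7.88, 6.22 and 5.64. As for Fos, only the Stat5b-/- libraries stood apart, all below the other 6. Fosb fell by 0.94 in Stat5b-/- against wt (standard error 0.16, adjusted p = 4.14e-04) and differed between the knockout lines by -0.88 (standard error 0.17, adjusted p = 0.00131). Its value in Stat5a-/- against wt was -0.06 with a 95% interval from -0.40 to 0.28 (adjusted p = 0.804). Over the 9 libraries the log2 CPM of Fos and Fosb had a Pearson correlation of 0.91, a description over libraries that share their line.

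The other members of the FOS family did not share this pattern. Fosl2 (ENSMUSG00000029135.10, chromosome 5 from 32135801 to 32157842, plus strand), which encodes FRA-2, had 5.58, 6.87 and 5.95 normalized CPM in wt, 4.33, 4.23 and 4.87 in Stat5a-/- and 7.54, 5.13 and 5.41 in Stat5b-/- libraries. The Stat5a-/- libraries lay lowest, but no comparison passed the test. Its log2 fold change was -0.03 in Stat5b-/- against wt (95% interval -0.42 to 0.36, adjusted p = 0.916), -0.46 in Stat5a-/- against wt (-0.87 to -0.05, adjusted p = 0.0758) and 0.43 between the knockout lines (0.02 to 0.85, adjusted p = 0.102). With library totals alone as the scale, -0.60 in Stat5a-/- against wt passed (adjusted p = 0.0203), as did -0.48 without Stat5b-/- replicate 1 (adjusted p = 0.0359).

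Fosl1 (ENSMUSG00000024912.5, chromosome 19 from 5447703 to 5455945, plus strand), which encodes FRA-1, was close to the detection limit and was not tested. It had 8, 5 and 6 reads in the wt libraries, 2, 0 and 1 in the Stat5a-/- libraries and 7, 2 and 3 in the Stat5b-/- libraries. Every Stat5a-/- library thus lay below every wt library, while Stat5b-/- overlapped both. Scaled to the libraries, its 3 reads in Stat5a-/- against 19 in wt gave a ratio of 0.222 with an exact 95% interval for counting error only of 0.042 to 0.753. The ratio in Stat5b-/- against wt was 0.789 (0.349 to 1.71).

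In the JUN family, Jund differed most. Jund (ENSMUSG00000071076.6, chromosome 8 from 70698949 to 70700616, plus strand, 1 exon) encodes the JUN protein that is expressed most steadily in resting cells. It had 51.5, 61.2 and 58.6 normalized CPM in wt, 247.6, 253.9 and 256.4 in Stat5a-/- and 174.1, 110.9 and 119.9 in Stat5b-/- libraries. The lines did not overlap, and the order was Stat5a-/-, then Stat5b-/-, then wt, with the widest spread in Stat5b-/-. Jund rose 4.42-fold in Stat5a-/- against wt (log2 fold change 2.15, standard error 0.15, adjusted p = 1.57e-07) and 2.36-fold in Stat5b-/- against wt (1.24, standard error 0.15, adjusted p = 1.93e-05). The Stat5b-/- line stayed below the Stat5a-/- line, at -0.90 on the log2 scale (standard error 0.15, adjusted p = 4.19e-04). With a correction for GC content, which is 67.2% in this gene, the values were 1.81, 1.10 and -0.72, and all passed the test. Exons of Gm11175 on the opposite strand cover 52.6% of the Jund exon, and the counting dropped reads that touch both genes, so its level is understated in every line.

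Jun (ENSMUSG00000052684.4, chromosome 4 from 95049034 to 95052222, minus strand, 1 exon) encodes c-JUN, the main partner of FOS. It had 18.7, 16.4 and 16.8 normalized CPM in wt, 26.6, 29.0 and 33.2 in Stat5a-/- and 24.4, 33.6 and 26.3 in Stat5b-/- libraries. Both knockout lines lay above all wt libraries and overlapped each other. Jun rose 1.71-fold in Stat5a-/- (log2 fold change 0.78, standard error 0.14, adjusted p = 7.33e-04) and 1.63-fold in Stat5b-/- (0.70, standard error 0.14, adjusted p = 0.00119). Between the knockout lines the difference was -0.07, with a 95% interval from -0.37 to 0.23 (adjusted p = 0.722). The antisense gene Junos covers 7.28% of the Jun exon and had at most 5 reads in a library.

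Junb (ENSMUSG00000052837.6, chromosome 8 from 84974484 to 84978718, minus strand) encodes JUNB, which often opposes c-JUN. It had 46.4, 36.2 and 37.2 normalized CPM in wt, 25.9, 22.1 and 37.5 in Stat5a-/- and 45.5, 34.7 and 25.7 in Stat5b-/- libraries. The libraries of all 3 lines overlapped, and no comparison passed the test. The log2 fold change was -0.49 in Stat5a-/- against wt (95% interval -0.95 to -0.02, adjusted p = 0.0955), -0.17 in Stat5b-/- against wt (-0.63 to 0.28, adjusted p = 0.531) and 0.32 between the knockout lines (-0.15 to 0.79, adjusted p = 0.286). Within each line the library with the highest Junb was also the one whose deviation from its line had the most positive correlation with the GC content of genes, at 0.467 in wt, 0.525 in Stat5a-/- and 0.319 in Stat5b-/-. In wt and Stat5b-/- a negative correlation of another library was larger in size, at -0.482 and -0.449. The part of GC content in the spread of Junb was not tested. With a correction for GC content Junb passed in all 3 comparisons, at -0.76 (adjusted p = 2.82e-05), -0.29 (adjusted p = 0.0252) and 0.47 (adjusted p = 0.00253). Without Stat5a-/- replicate 3, the value in Stat5a-/- against wt was -0.76 and also passed (adjusted p = 0.0119), and without Stat5b-/- replicate 3 it was -0.49 (adjusted p = 0.0474).

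**Figure D2:**
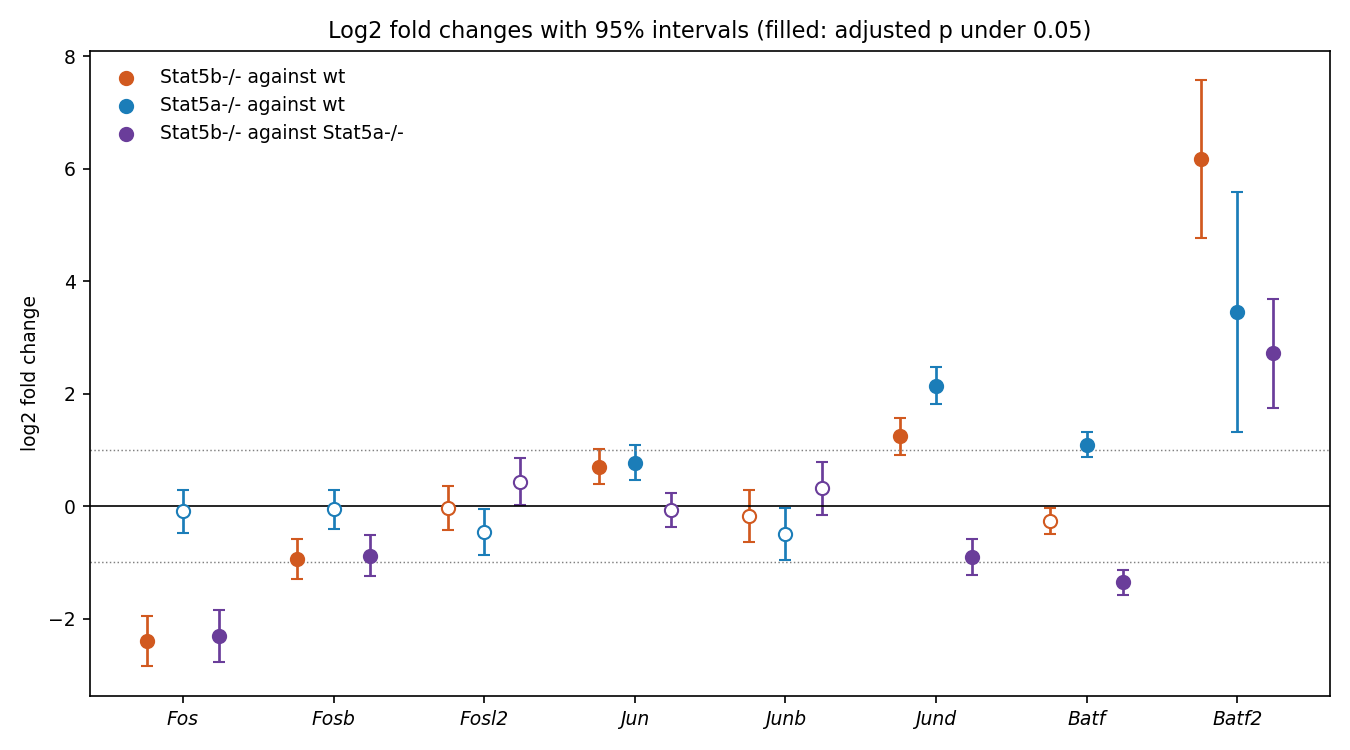
Log2 fold changes of the 8 tested members in the 3 comparisons, with 95% intervals as bars, filled points for an adjusted p under 0.05 and dotted lines at a fold change of 2. Fos is at -2.40 and -2.31 in both comparisons of Stat5b-/- and at -0.09 in Stat5a-/- against wt, Batf is at 1.09 in Stat5a-/- and -0.27 in Stat5b-/- against wt, and the fitted values of Batf2 rest on 1 read in wt.

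Batf rose in Stat5a-/-, the line in which Fos did not pass the test. Batf (ENSMUSG00000034266.5, chromosome 12 from 85686669 to 85709087, plus strand, 3 exons) encodes the BATF protein of activated lymphocytes. It had 64.7, 54.4 and 62.6 normalized CPM in wt, 120.0, 134.9 and 132.1 in Stat5a-/- and 47.7, 54.1 and 49.3 in Stat5b-/- libraries. All Stat5a-/- libraries lay far above the others, and all Stat5b-/- libraries lay below wt by a narrow margin. Batf rose 2.13-fold in Stat5a-/- against wt (log2 fold change 1.09, standard error 0.10, adjusted p = 2.43e-06), and Stat5b-/- set against Stat5a-/- gave -1.36 (standard error 0.11, adjusted p = 5.73e-07). Its value of -0.27 in Stat5b-/- against wt (95% interval -0.49 to -0.04) missed the threshold with an adjusted p of 0.0527. Other settings gave it an adjusted p between 0.0155 and 0.157, and 8 of 18 passed. These were DESeq2 (-0.30, adjusted p = 0.0310), RLE scaling, library totals alone, the GC offset with and without the block, and the fits without wt replicate 2 (-0.34, adjusted p = 0.0299), Stat5a-/- replicate 1 (-0.29, adjusted p = 0.0483) and Stat5a-/- replicate 3 (-0.29, adjusted p = 0.0379).

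Batf2 (ENSMUSG00000039699.13, chromosome 19 from 6140983 to 6172476, plus strand) was nearly absent from wt. It had 0, 0 and 1 reads in the wt libraries, 5, 5 and 1 in the Stat5a-/- libraries and 36, 21 and 26 in the Stat5b-/- libraries. The Stat5b-/- libraries stood above all others, and wt and Stat5a-/- met at 1 read. After scaling, 83 reads in Stat5b-/- against 1 in wt gave a ratio of 104, with an exact 95% interval of 18.1 to 4140 for counting error only. The 11 reads in Stat5a-/- gave a ratio of 15.4 against wt (2.24 to 664), and Stat5b-/- stood at a ratio of 6.71 to Stat5a-/- (3.57 to 14.0). Because Batf2 entered the test only through its Stat5b-/- libraries, both comparisons of Stat5b-/- had to differ, and their p-values are not given. Stat5a-/- against wt had an adjusted p of 0.0149. That call was lost without wt replicate 2 (adjusted p = 0.0572), Stat5a-/- replicate 1 (0.0531) or Stat5a-/- replicate 2 (0.0581), and with only these 2 genotypes fitted Batf2 fell below the filter and was not tested.

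Batf3 (ENSMUSG00000026630.9, chromosome 1 from 191097847 to 191108945, plus strand), known from cross-presenting dendritic cells, was not tested. It had 5, 5 and 6 reads in wt, 3, 3 and 4 in Stat5a-/- and 2, 1 and 6 in Stat5b-/- libraries. The ratio to wt was 0.877 in Stat5a-/- (0.356 to 2.06) and 0.702 in Stat5b-/- (0.274 to 1.69), so a difference was not detectable at this depth.

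Levels of different members can be compared per length, as normalized CPM per kb of the deposited gene length. In wt the order was Batf at 63.4 ± 5.72 (SD, n = 3), Jund at 34.2, Junb at 17.3, Jun at 5.42, Fos at 4.68, Fosb at 2.03 and Fosl2 at 0.634, with Fosl1, Batf3 and Batf2 at or below 0.216. Of these neighbours only Fosl1 and Batf3 overlapped between libraries. The first rank depends on the length used: without the bases shared with Gm11175, Jund in wt was at 72.2 ± 6.37 (65.1 to 77.4), above the mean of Batf, and the libraries of both overlapped. In Stat5a-/- Jund came first at 151.5 and Batf second at 135.1, and Junb (12.4) and Jun (9.28) overlapped. Without the shared bases Jund was at 319.4 in Stat5a-/- and at 170.6 in Stat5b-/-. In Stat5b-/- Jund led at 80.9 before Batf at 52.7. Fosb (1.05), Fos (0.882) and Batf2 (0.778) overlapped there, and Fosl2 (0.623) overlapped with Fos and Batf2.

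The families were added up on the same scale, as a description. The summed level per kb of the 10 members was 128.2 ± 5.70 in wt, 315.3 ± 13.7 in Stat5a-/- and 161.5 ± 21.4 in Stat5b-/- (SD, n = 3). The FOS family made up 5.89% ± 0.105 of it in wt, 2.17% ± 0.259 in Stat5a-/- and 1.69% ± 0.0812 in Stat5b-/-. No line overlapped another in this share, but the FOS sum itself was 7.11 to 7.99 per kb in wt and 6.21 to 8.03 in Stat5a-/-, which overlapped, and 2.44 to 3.02 in Stat5b-/-. The JUN share was 44.5% ± 2.39, 54.9% ± 1.19 and 64.6% ± 5.54 in the same order, and the BATF share 49.6% ± 2.33, 42.9% ± 1.33 and 33.7% ± 5.47. In wt the JUN and BATF shares overlapped between libraries. Within the JUN family, Jund held 60.0% in wt, 87.5% in Stat5a-/- and 76.7% in Stat5b-/-, and Junb held 30.4%, 7.11% and 14.5%. Within the FOS family, Fos held 61.8%, 64.0% and 32.8%, and in Stat5b-/- Fosb had 38.5%, with libraries that overlapped those of Fos. These sums and shares depend on the lengths. Without bases shared with another gene, the summed level was 167.9 in wt, 485.0 in Stat5a-/- and 253.1 in Stat5b-/-. Where bases shared with another gene were left out, which mainly raises Jund, the JUN family led in wt as well, with 57.7% against 37.9% for BATF. The FOS share was then 4.50% in wt, 1.41% in Stat5a-/- and 1.08% in Stat5b-/-, that of BATF was 27.9% in Stat5a-/- and 21.7% in Stat5b-/-, and Junb held 19.5%, 3.89% and 8.43% of the JUN family in the 3 lines.

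**Figure D3:**
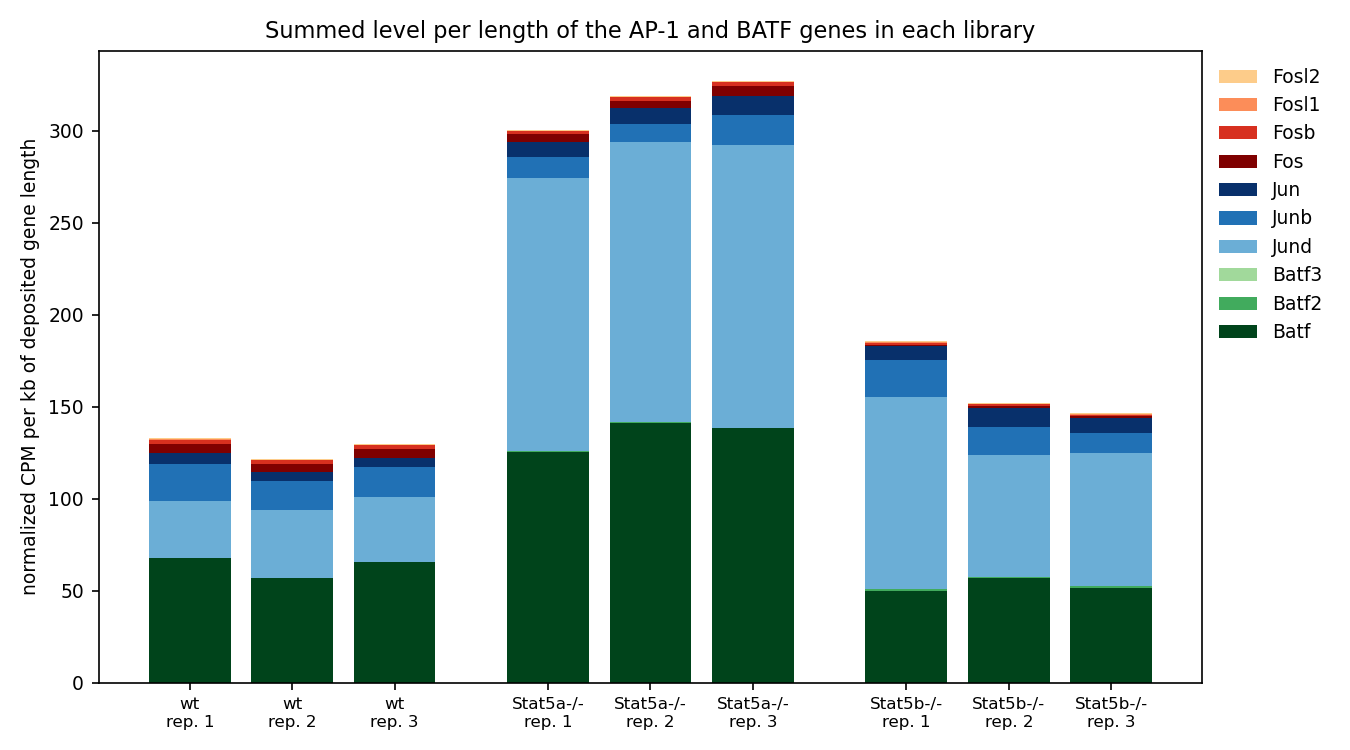
Normalized CPM per kb of deposited gene length of the 10 members, stacked for each of the 9 libraries (green BATF, blue JUN, red and orange FOS family). The Stat5a-/- libraries sum to 300.3 to 327.0, above wt at 121.8 to 132.8 and Stat5b-/- at 146.4 to 185.9, through Jund and Batf, and the FOS family is a thin layer in every library.

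Fos and Batf are neighbours on chromosome 12, with Jdp2 between them. Jdp2 encodes a leucine zipper protein that pairs with JUN proteins and represses AP-1, starts 125.2 kb from Fos, and leads the list of leucine zipper partners below. Batf starts 212.8 kb from Fos. Jdp2 had 44.5, 40.1 and 43.5 normalized CPM in wt, 18.6, 18.1 and 20.6 in Stat5a-/- and 0.480, 1.02 and 0.609 in Stat5b-/- libraries. It was nearly absent from Stat5b-/- and intermediate in Stat5a-/-, with no overlap. Jdp2 fell by 5.90 in Stat5b-/- against wt (standard error 0.20, adjusted p = 1.35e-10) and by 1.16 in Stat5a-/- against wt (standard error 0.13, adjusted p = 1.20e-05). Between the knockout lines it stood at -4.73 (standard error 0.20, adjusted p = 2.00e-09). Against wt the 3 neighbours were not all called in the same direction. In Stat5b-/- against wt Fos and Jdp2 fell and Batf, at -0.27, narrowly missed the threshold. In Stat5a-/- against wt Jdp2 fell, Batf rose and Fos did not pass. Between the knockout lines all 3 were lower in Stat5b-/-, with Fos at -2.31 and Batf at -1.36. This look at the neighbourhood was chosen after its values were seen. Of the 16 other tested genes that reach within 500 kb of Fos, Jdp2 and Batf among them, 3 were lower and the rest did not pass in Stat5b-/- against wt, with a median log2 fold change of -0.21, and 4 were higher and 3 lower in Stat5a-/-, with a median of -0.08.

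**Figure D4:**
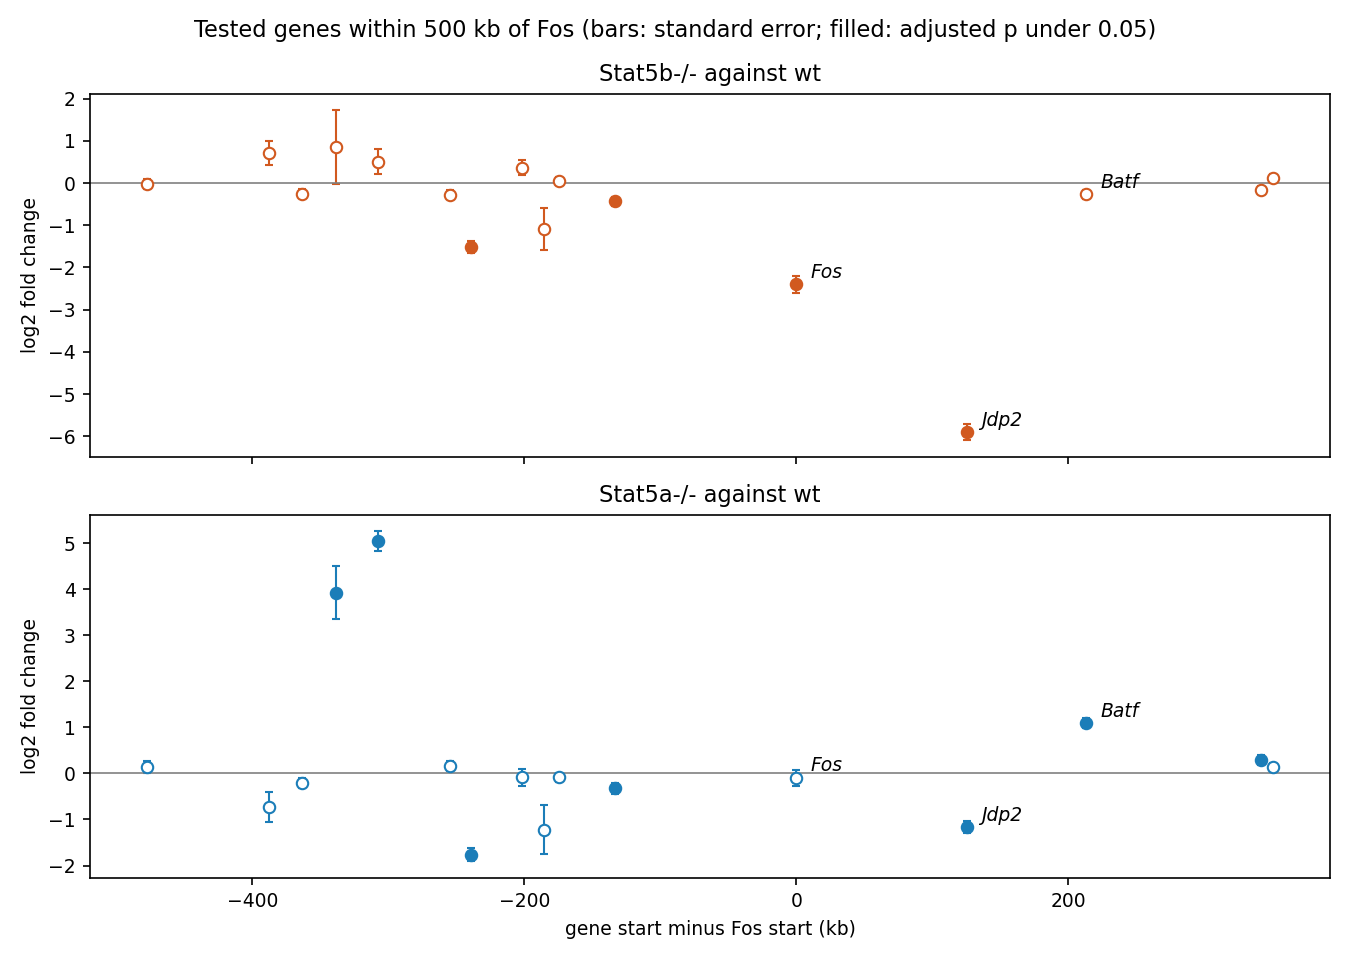
Log2 fold change against wt of Fos and the 15 other tested genes whose start lies within 500 kb of its start, by distance of its start from that of Fos in kb, with standard errors as bars and filled points for an adjusted p under 0.05 (upper panel Stat5b-/-, lower panel Stat5a-/-). Jdp2 is at -5.90, Fos at -2.40 and Batf at -0.27 in Stat5b-/-. In Stat5a-/- Batf is at 1.09 and Jdp2 at -1.16.

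The genes around other members were read as well, and only those that stood out most are given. Fosl1 and Batf2 lie on chromosome 19. Of its 470 tested genes other than Batf2, 47.4% were higher and 6.17% lower in Stat5a-/- against wt, with a median log2 fold change of 0.41, while the median in Stat5b-/- against wt was 0.03. Between the knockout lines the median of this chromosome was -0.43. Of 33 tested genes that reach within 500 kb of Junb, 16 were lower and the rest did not pass in Stat5b-/- against wt, with a median of -0.32. In Stat5a-/- against wt 11 were lower and 1 higher, also with a median of -0.32. On all of chromosome 8, where Junb lies, 23.0% were lower in Stat5b-/- against wt and 16.0% in Stat5a-/- against wt. The part of these neighbourhoods in the members' values was not tested.

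The genes that act with the members were read from lists. For reference, all 13852 genes had median log2 fold changes of 0.02 in Stat5b-/- against wt, 0.01 in Stat5a-/- against wt and 0.02 between the knockout lines. The counts of every list stand against the shares of all genes called, 24.2% higher and 22.0% lower in Stat5b-/- against wt, 19.8% and 16.3% in Stat5a-/- against wt, and 16.4% and 17.5% between the knockout lines, and a count near these shares says nothing about a list. Of 16 tested leucine zipper partners of AP-1, 4 were higher and 7 lower in Stat5b-/- against wt, 4 were higher and 5 lower in Stat5a-/- against wt, and 2 were higher and 4 lower between the knockout lines, with medians of -0.05, -0.07 and -0.07. Besides Jdp2, Cebpb, a C/EBP factor of inflammatory genes, fell in both knockout lines, from 6.96 normalized CPM in wt to 0.698 in Stat5a-/- and 0.660 in Stat5b-/-. Ddit3 and Atf4, factors of the integrated stress response, also fell in both, Ddit3 by 0.55 and Atf4 by 0.73 in Stat5b-/- and Ddit3 by 0.86 and Atf4 by 0.45 in Stat5a-/-. Nfe2, the erythroid and megakaryocytic factor, rose from 1.38 normalized CPM in wt to 7.23 in Stat5a-/- and stood at 1.31 in Stat5b-/- (log2 fold change 2.41 in Stat5a-/- and -0.04 in Stat5b-/-, the latter with adjusted p = 0.931).

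The kinases and factors that induce Fos were read next. Of 15 tested MAP kinase genes, 3 were higher and 2 lower in each comparison with wt, with medians of 0.02 and 0.02, and 4 were higher and 3 lower between the knockout lines, with a median of 0.02. The counts against wt were near or below the shares of all genes. Rps6ka1, which encodes the ERK-activated kinase RSK1, fell by 0.68 in Stat5b-/- and rose by 0.55 in Stat5a-/-, and Map2k6, a p38 kinase kinase, fell by 1.12 in Stat5b-/-. Mapk9 and Map3k1, both of the JNK branch, rose in Stat5b-/- by 0.51 and 0.55, and Mapk14, the p38 alpha kinase, rose in Stat5a-/- by 0.61. Of 7 activators of the Fos promoter, 3 were higher and 1 lower in Stat5b-/- against wt, 3 were higher and the rest did not pass in Stat5a-/-, and 1 was higher and 2 lower between the knockout lines, with medians of 0.30, 0.35 and -0.02. Elk3, an ETS partner of serum response factor that can repress Fos, rose in both knockout lines, from 32.3 normalized CPM in wt to 109.4 in Stat5a-/- and 107.7 in Stat5b-/-. Elk4 rose by 0.98 and Mrtfb fell by 0.52 in Stat5b-/-, Mrtfa rose by 0.70 in Stat5b-/- and 0.69 in Stat5a-/-, and Elk1 differed between the knockout lines by -0.64.

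Other immediate early genes form the next list. Of 16 tested, 8 were higher and 3 lower in Stat5b-/- against wt, 5 were higher and 3 lower in Stat5a-/- against wt, and 5 were higher and 4 lower between the knockout lines, with medians of 0.40, 0.20 and 0.07. Both counts of lower genes against wt were near the shares of all genes. Klf2, a quiescence factor of lymphocytes, rose by 0.92 in Stat5b-/- and 1.36 in Stat5a-/-. Gadd45b, Klf6 and Dusp1, the last a MAP kinase phosphatase, rose in both as well. The 3 lower in Stat5b-/- against wt were Ier3 (-1.26), Nr4a2 (-0.88) and Nr4a1 (-0.77), named after their values were seen. Egr1, a zinc finger factor induced through the same promoter elements as Fos, had 137.5 normalized CPM in wt, 54.3 in Stat5a-/- and 129.8 in Stat5b-/-. It fell in Stat5a-/- (log2 fold change -1.34, adjusted p = 7.50e-06), where Fos did not pass, and in Stat5b-/- against wt its value was -0.08 (adjusted p = 0.654), where Fos fell. Between the knockout lines Egr1 was higher in Stat5b-/- by 1.26 (adjusted p = 2.14e-05). Ccn1 was listed at 0 in all 9 libraries. The 8 genes for turnover of JUN and FOS proteins or of AU-rich mRNA had 5 higher in Stat5b-/- against wt, 4 higher in Stat5a-/- against wt and 2 higher between the knockout lines, where the rest did not pass, with medians of 0.41, 0.52 and -0.06. Among them the ligase gene Nedd4l rose by 0.83 in Stat5b-/- and 0.98 in Stat5a-/-, and Trib1, a COP1 adaptor, by 1.08 and 0.75. Zfp36l2 and Zfp36l1, which encode proteins that bind AU-rich mRNA, also rose in both lines, and Itch, a JUN ligase, differed between the knockout lines by 0.34.

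Textbook AP-1 targets were mixed. Of 15 listed, 10 were tested, and 2 were higher and 5 lower in Stat5b-/- against wt, 3 higher and 4 lower in Stat5a-/- against wt, and 4 lower between the knockout lines, where the rest did not pass, with medians of -0.14, -0.31 and -0.41. Ccnd1, which encodes cyclin D1, fell from 77.0 normalized CPM in wt to 15.3 in Stat5a-/- and 8.31 in Stat5b-/-. Hmox1, the heme oxygenase gene, fell from 58.9 to 27.3 and 16.2, and both were lower in Stat5b-/- than in Stat5a-/- (log2 fold change -0.87 with adjusted p = 0.00377, and -0.75 with adjusted p = 2.70e-04). Anxa1 and Vim rose in both knockout lines, Anxa1 by 1.49 in Stat5b-/- and 1.81 in Stat5a-/- and Vim by 0.52 and 1.00. Plaur, the urokinase receptor gene, rose in Stat5a-/-, where it had 12.7 normalized CPM against 0.922 in wt and 1.52 in Stat5b-/-. Mmp3 was listed at 0 throughout.

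Genes that work with BATF proteins were higher in Stat5b-/- where they passed the test. Of 9 listed BATF partners and targets, 6 were tested, with 4 higher in Stat5b-/- against wt, 3 higher and 2 lower in Stat5a-/- against wt and 5 higher between the knockout lines, with medians of 1.13, 0.71 and 0.56. Irf4, whose protein binds DNA together with BATF, had 114.5 normalized CPM in wt, 201.6 in Stat5a-/- and 267.1 in Stat5b-/-, and Irf1 had 21.6, 42.9 and 66.1. Irf8, the other main partner, fell by 0.67 in Stat5a-/- and had -0.17 in Stat5b-/- (adjusted p = 0.327). Bcl6 fell by 0.77 in Stat5a-/-, and Prdm1, the plasma cell factor, rose by 1.65 in Stat5b-/-. Il10 and Il21 were listed at 0 in every library. Of 14 interferon-induced genes, the class Batf2 belongs to, 14 were higher in Stat5b-/- against wt, 8 were higher and the rest did not pass in Stat5a-/- against wt, and 8 were higher and 3 lower between the knockout lines, with medians of 1.60, 0.96 and 0.76. Several of these were chosen by the study on these libraries, so their direction is not independent evidence. Irf7 had 6.03 normalized CPM in wt, 12.3 in Stat5a-/- and 30.7 in Stat5b-/-, and Irf9 had 19.4, 22.9 and 50.4, while Gbp2 (7.19, 78.0 and 52.5) and Gbp3 (17.1, 94.8 and 35.7) were highest in Stat5a-/-. Irf1 is in both lists and Zfp36 in both that concern early genes and turnover.

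**Figure D5:**
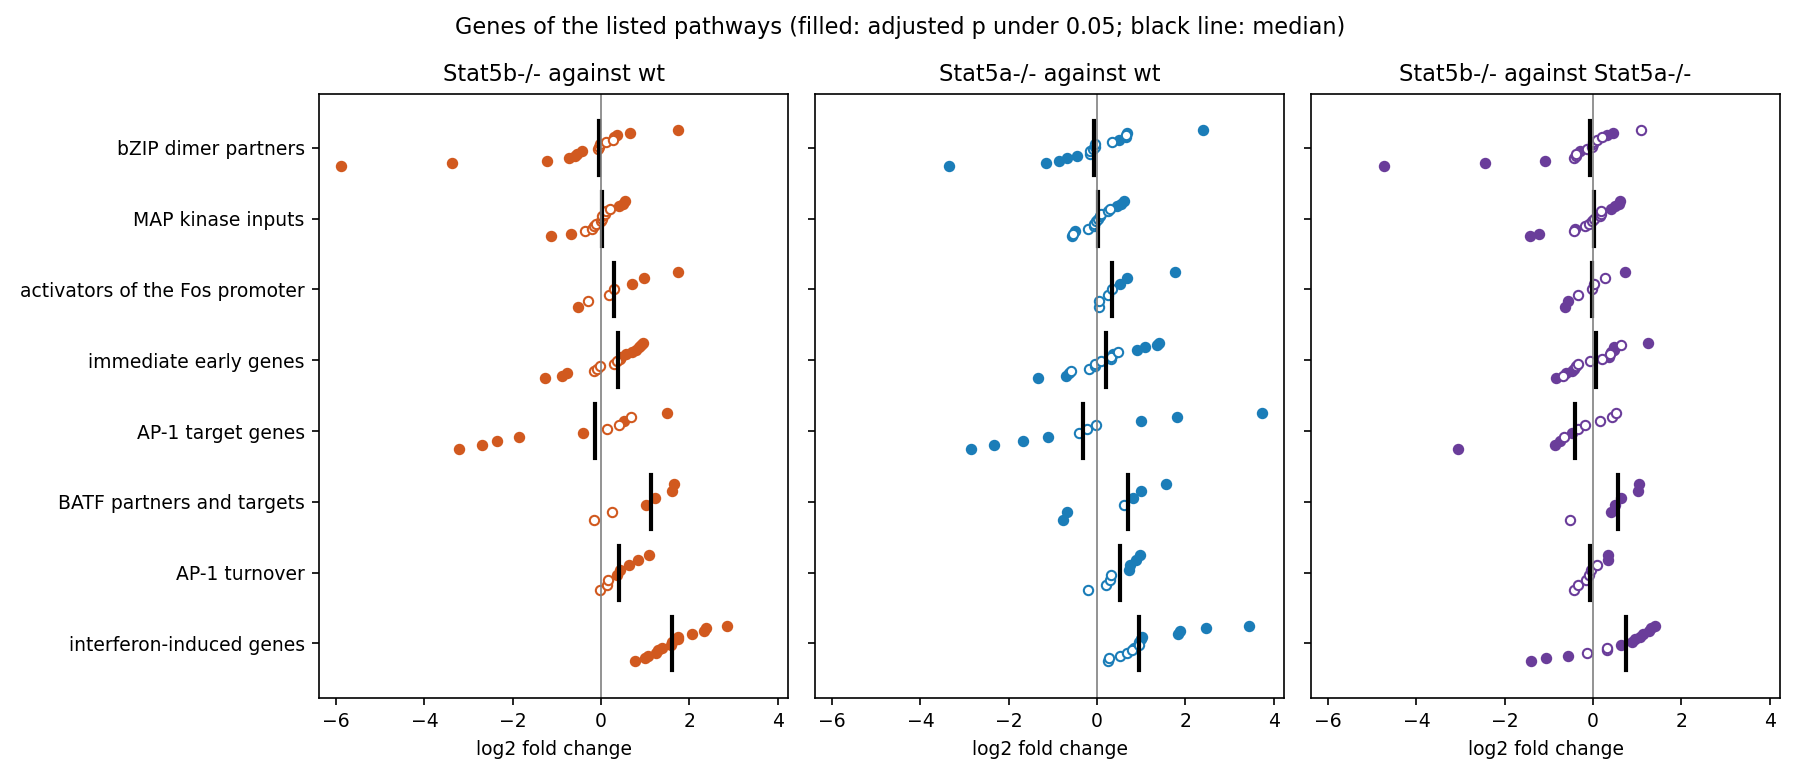
Log2 fold changes of the tested genes of 8 lists in the 3 comparisons (filled points for an adjusted p under 0.05, black lines for the median of each list, one shared axis). The 14 interferon-induced genes all lie above 0 in Stat5b-/- against wt with a median of 1.60, the immediate early genes have a median of 0.40 there, and the point at -5.90 among the leucine zipper partners is Jdp2.

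Markers of other cell types moved with the lines. The summed level of 16 T-cell markers was 835.6 to 1159 normalized CPM in wt, 1276 to 1513 in Stat5a-/- and 1882 to 2713 in Stat5b-/- libraries, 15 of them were higher in Stat5b-/- against wt, and none was at 0. The 10 myeloid markers, of a cell type that also expresses Batf2, summed to 4.79 to 7.42, 7.57 to 9.51 and 12.3 to 15.5 in the same order. All 3 of them that were tested rose in Stat5b-/- against wt, Fcgr3 by 2.58, Csf1r by 1.09 and Lyz2 by 1.07, while Elane, Mpo and Cd14 were at 0 in all Stat5b-/- libraries and had at most 4 reads over all 9 libraries. The 7 NK-cell markers summed to 74.9 to 108.6, 99.1 to 125.2 and 137.0 to 220.8. Of the 5 tested NK-cell markers 4 rose in Stat5b-/- against wt, and Klrb1c fell, from 10.3 normalized CPM in wt to 4.43 in Stat5a-/- and 1.63 in Stat5b-/-. The 7 erythroid markers summed to 11.5 to 13.8, 11.7 to 14.6 and 2.74 to 3.81. Most of the erythroid sum is 1 gene, Hbb-bt, at 11.1 normalized CPM in wt and 2.24 in Stat5b-/-. The 8 heat shock genes, which cell stress induces as it does Fos and Jun, summed to 547.2 to 582.6 in wt, 400.4 to 452.3 in Stat5a-/- and 349.6 to 391.1 in Stat5b-/-. Of the 7 tested, 4 were lower in Stat5b-/- against wt, among them Hspd1 by -1.15, and 2 were higher, Hspa1a by 1.29 and Dnajb1, named after its values were seen, by 0.34. Fewer cells of a type and less RNA per cell cannot be told apart in these bulk libraries, and the part of these genes in the members' values was not tested.

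The genes whose levels were most like those of a member over the 9 libraries were found by the Pearson correlation of log2 CPM, given as a description, since libraries of a line share their source. They were Rab31 (0.996), Dpf1 and Inpp5a for Fos, Slc22a17 (0.979), Epop and Zdhhc8 for Fosb, and Kidins220 (0.944), Evi2a and Fbxl20 for Fosl2. For Jun they were Ctnnbl1 (0.988), Capzb and Blnk, for Junb Slc39a13 (0.975), Tbc1d1 and Smim10l1, and for Jund Clcf1 (0.992), H2-DMa and Ly6d. For Batf they were Slc39a6 (0.997), Ighm and Gtf2f1, and for Batf2 Lat (0.984), Gm14029 and E130307A14Rik. Among the members themselves Jun and Jund correlated at 0.80, Fos and Batf at 0.62, and Fos and Batf2 at -0.94.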

How the data were processed

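mRNA of 9 mouse libraries was sequenced as 50 bp single-end reads. The authors trimmed the reads with Trimmomatic, aligned them to GRCm38 (mm10, annotation GENCODE M13) with STAR and deposited raw counts per gene from featureCounts 1.5.1 on exons of union gene models. Per the file headers no strand was set, and reads that map to several places or touch 2 genes were dropped, so overlapping and antisense genes are undercounted. Symbols came from GENCODE and named 50376 of 50686 genes. Samples were grouped by genotype label.

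The members, the gene lists and the tests were chosen with earlier results of these data known. TMM factors scaled the counts, and edgeR 4.0.16 in R 4.3.3 tested them (filterByExpr, glmQLFit and glmQLFTest on all 9 libraries, 13852 genes tested, Benjamini-Hochberg adjustment, call at an adjusted p under 0.05). Standard errors were taken as the size of the log2 fold change divided by the root of F, and 95% intervals use the t quantile of the fit. The steps were tested on simulated data. Totals of 11948136 to 19016396 reads make genes with a few reads imprecise, and intervals of read ratios, which are exact binomial, cover counting error only. Correlations used log2 CPM with a prior count of 2. Named were the 10 members, Stat5a and Stat5b, and up to 5 genes of each list with the smallest adjusted p. Up to 3 genes most correlated with each tested member were also named. Further genes are said in place to be named after their values were seen. Promoters are those of RefSeq.

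The alternatives were RLE scaling, library totals alone, DESeq2 1.42.0, no filter or a mean of at least 10 counts, a fit of only the 2 genotypes compared, a fold change above 2 as well, the replicate number as a block, a GC offset fitted library by library with loess (span 0.5), both together, and each library left out in turn. Lengths without bases shared with another gene were chosen after seeing the data. Libraries of 1 line varied beyond sampling noise (chi-square per degree of freedom 5.05 to 31.4). The human samples were not analysed here.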

Additional observations from a re-analysis of the deposited data

Results flagged for a closer look

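The effects of both knockouts were compared by testing Stat5b-/- directly against Stat5a-/- with edgeR's quasi-likelihood method, and 4 members were called besides Batf2. Fos differed by -2.31 on the log2 scale, Fosb by -0.88, Jund by -0.90 and Batf by -1.36, all lower in Stat5b-/-, beside 17.5% of all tested genes called lower in this comparison. Batf2 had a fitted difference of 2.72, higher in Stat5b-/-, which is a description, since the filter let it in only through the Stat5b-/- libraries. Each genotype is 1 line, so genotype and line cannot be told apart.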

How the results depend on the processing

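Of 431 values of the 8 tested members under an alternative, 402 kept their side of the threshold, 3 lost the call and 26 gained one. The sign changed in 11, of Fosb, Fosl2, Jun and Junb in comparisons that did not pass the test, and in 0 of the values called. The calls lost were those of Batf2 in Stat5a-/- against wt given above, which was not tested with only the 2 genotypes fitted, and those gained concern Fosl2, Junb and Batf. In Stat5b-/- against wt, 4 members were lower with the GC offset (Fos, Fosb, Junb and Batf), 4 with the GC offset and replicate block, and 1 with a fold change above 2. In Stat5a-/- against wt, 2 members (Fosl2 and Junb) were lower with library totals alone, with only the 2 genotypes fitted, with the GC offset and with that and the block, 1 without a filter, and 0 to 1 with a library left out. Between the knockout lines, 2 members were higher with library totals alone, 3 with the GC offset and 2 with the offset and block, and 2 were lower with a fold change above 2. That limit left 1471, 1074 and 666 of all genes higher and 1169, 899 and 914 lower in Stat5b-/- against wt, Stat5a-/- against wt and between the knockout lines, and with library totals alone 3429 genes were lower in Stat5a-/- against wt. Jund in Stat5a-/- was then at 237.8 CPM. The cause of these shifts was not tested.

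Deviations from the line means correlated at a mean of -0.088 over 9 pairs of equal replicate number, 2 of them over 0.1. The pairs ranged from -0.445 to 0.216 and share libraries, so this mean cannot decide whether replicate numbers pair the libraries. The replicate block changed no member's call (for Fos, -2.39 in Stat5b-/- against wt) and left 3016 of all genes higher and 2738 lower there.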
